A study of Homo sapiens with 12 samples.

Results

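HCT15 cells overexpressing RNF26 were compared with HCT15 control cells across messenger RNA. HCT15 is an established human colorectal carcinoma line that carries a mutant APC gene, and both groups share that background. The comparison used the 6 HCT15 libraries of the 12 in the series, which were chosen by their labels: 3 labelled HCT15_con and 3 labelled HCT15_ov_RNF26. Of 63036 gene identifiers in the table, the 13964 that reached 1 TPM in 3 or more of these libraries entered the test. TPM is a transcript abundance scaled to the same total in each library, so sequencing depth is unknown and the level of any gene shifts when abundant genes take a larger share. The labels give no vector, no promoter for RNF26, no time after its introduction, and do not say whether the cells are a clone or a pool. The question named in the title is whether RNF26 acts on growth and spread of colorectal cancer cells through Wnt signalling, and the same comparison was made in HCT116, another colorectal carcinoma line.

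RNF26 is an E3 ubiquitin ligase with a RING domain that sits in the membrane of the endoplasmic reticulum. It recruits SQSTM1 and vesicle adaptors such as TOLLIP and so holds endosomes near the nucleus, and it modifies STING1, the adaptor that carries cytosolic DNA sensing to interferon genes. Wnt signals stabilise beta-catenin, which with TCF and LEF factors switches on growth genes in colon epithelium. Loss of APC, a scaffold of the complex that degrades beta-catenin, leaves this pathway active.

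Between 13647 and 14135 genes reached 1 TPM in a library, and the third control library stood apart from the others. In it, genes of the mitochondrial genome took 25.9% of all TPM and cytosolic ribosomal protein genes 17.7%, against 16.4% to 19.2% and 22.0% to 27.8% in the other 5. Control libraries correlated at 0.968 to 0.979 on log2 values and RNF26 libraries at 0.983 to 0.985, with 0.952 to 0.975 between the groups. Of 13 colon epithelial markers 8 were tested, and 5 of these fell: VIL1, CDX2, CDH1, KRT8 and KRT19. KRT8 and KRT19, keratins of simple epithelium, were at 1937 to 2281 and 579 to 739 TPM in control libraries and at 1487 to 1602 and 464 to 496 TPM with RNF26. EPCAM, an epithelial adhesion protein, KRT18, the partner of KRT8, and CDH17 were not called, with EPCAM at 546 to 572 and 540 to 563 TPM. KRT20, CDX1, GPA33 and CEACAM5 stayed under 1 TPM in all 6. These markers outside the named-gene rule are given as a check of the label, and the falls were 3 without the first control or any 1 of the RNF26 libraries. All 10 fibroblast markers, 7 of 8 endothelial markers and 9 of 12 leukocyte, red cell and liver markers were under 1 TPM in all 6 libraries, and 5, 3 and 3 of them were at 0 in all. The exceptions were ESAM, an endothelial adhesion protein, at 4.48 to 5.31 TPM in control libraries and 2.28 to 3.34 TPM with RNF26, the myeloid proteins CD14 and CD68, and HBB, a globin listed at 2.0 TPM in 1 RNF26 library and 0 in the other 5. The labels do not say that replicates came from separate cultures, so a p-value here measures only how these libraries vary, and that variation may be technical. In bulk RNA, fewer cells of a type and less RNA per cell cannot be told apart.

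RNF26 was measured at 26.7, 27.8 and 26.4 TPM in control libraries and at 53.5, 54.6 and 54.4 TPM with RNF26. The groups did not overlap, and within each group the libraries lay close together. The control mean was 27.0 ± 0.762 TPM and the RNF26 mean 54.2 ± 0.561 TPM (SD, n = 3 each), 2.01 times the control. The log2 difference was 0.98 (SE 0.0766, limma adjusted p = 0.00131), and an exact two-sided permutation test gave p = 0.1, the smallest that 3 against 3 allows. The gene (ENSG00000173456) lies at chr11:119334527-119337313 of GRCh38, plus strand. TPM per gene does not separate an introduced copy from the cell's own.

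Of 12 tested genes for RNF26 and its vesicle and STING1 partners, RNF26 rose and 4 fell, while 27.1% of all genes fell. None of the 4 fell under every setting described next. These 4 are named after their values were seen. STING1 went from 18.7, 16.4 and 17.1 to 13.4, 11.9 and 10.9 TPM. IRF3, the transcription factor that STING1 activates, went from 60.4, 59.7 and 71.9 to 38.5, 43.4 and 50.5 TPM. For both genes all RNF26 libraries lay below all controls. TOLLIP differed by -0.47 and ENDOD1, a nuclease-like protein, by -0.30 on the log2 scale. The falls were 2 without the first control and 1 without the first RNF26 library, and after the GC and length correction below none of the 4 was called.

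RNF26 overexpression in HCT15 went with many more falls than rises. Expression was tested by limma on log2(TPM + 1), a scale that understates the change of low genes, and a gene was called where its p, adjusted by Benjamini-Hochberg over the tested genes, was under 0.05. Of the 13964 genes, 483 (3.46%) rose and 3785 (27.1%) fell. The log2 difference reached 1 either way in 273 of these, 58 higher and 215 lower. All RNF26 libraries lay above all controls for 7.61% of genes and below them for 39%. Statements below that groups were separate are to be read beside these shares. The median over all genes was -0.191, so list medians below are given relative to it. With libraries scaled by median ratios instead, which moves that median to -0.0012, 10.8% rose and 13.2% fell, and the split of calls into rises and falls thus depends on the scaling. Without the first control library 205 genes rose and 2291 fell, and without the second 798 rose and 3750 fell. Leaving out the first, the second or the third RNF26 library left 181, 202 or 236 rises, and leaving out the first left 2185 falls.

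A stable call is here one that passed with the same sign in the main fit, with median-ratio scaling, without the genes of the mitochondrial genome and the ribosomal proteins, and without each of the 6 libraries in turn. There were 120 stable rises (0.859% of tested genes) and 1756 stable falls (12.6%), and the genes named below are stable calls unless said otherwise. Genes of the mitochondrial genome and the cytosolic ribosomal protein genes of the list below are absent from one of these fits, so by definition they cannot be stable.

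**Figure D1:**
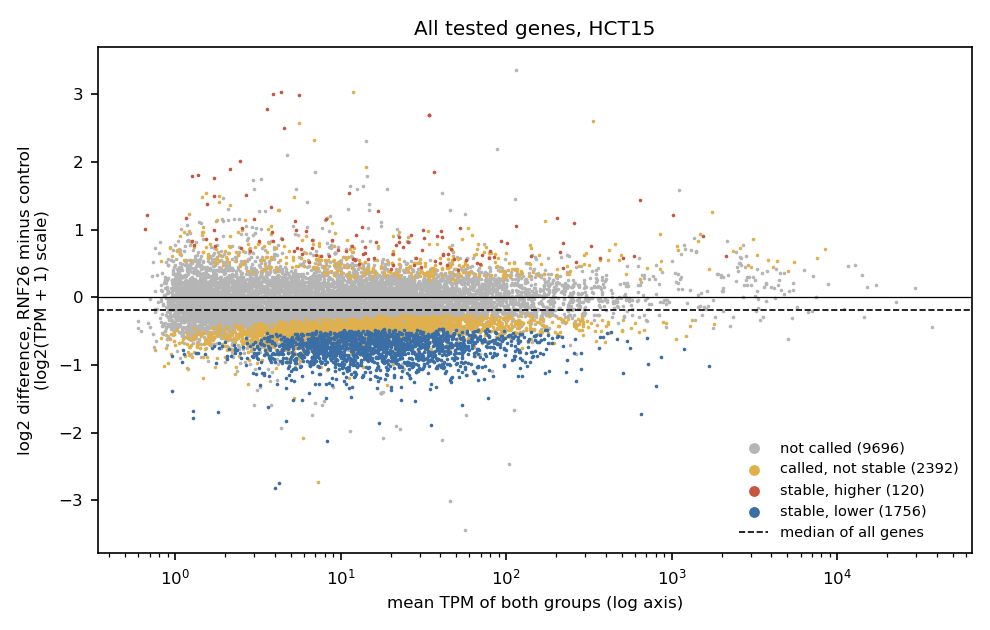
Log2 difference (RNF26 minus control, vertical axis) against the mean TPM of both groups (horizontal log axis) for the 13964 tested genes, coloured as stable rises, stable falls, other calls and genes not called, with the median of all genes dashed. The 1756 stable falls form a band below that median, and the 120 stable rises are fewer and scattered above it.

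Guanine and cytosine (GC) content moved with the groups. The log2 level of GC-rich genes minus that of GC-poor genes was 0.31, 0.23 and 0.18 in the control libraries and -0.23, -0.36 and -0.13 in the RNF26 libraries, without overlap. Among genes in the lowest of 5 equal bins of GC content 5.59% fell and 6.86% rose, and in the highest bin 51.8% fell and 0.933% rose. Over 13392 genes the log2 difference correlated with GC content at r = -0.41 (rho = -0.46), given as a description because genes of the same libraries are not independent. A spline that corrected each library for the length and GC content of transcripts left 772 rises (5.76%) and 1161 falls (8.67%). Of the stable calls 113 rises and 903 falls also passed after it. The labels name no step that differed between the groups, and GC content and RNF26 cannot be told apart here, so a corrected count stands beside each list below. List counts are to be read beside the 27.1% of all genes that fell and the 3.46% that rose. Corrected counts are to be read beside 8.67% and 5.76%.

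**Figure D2:**
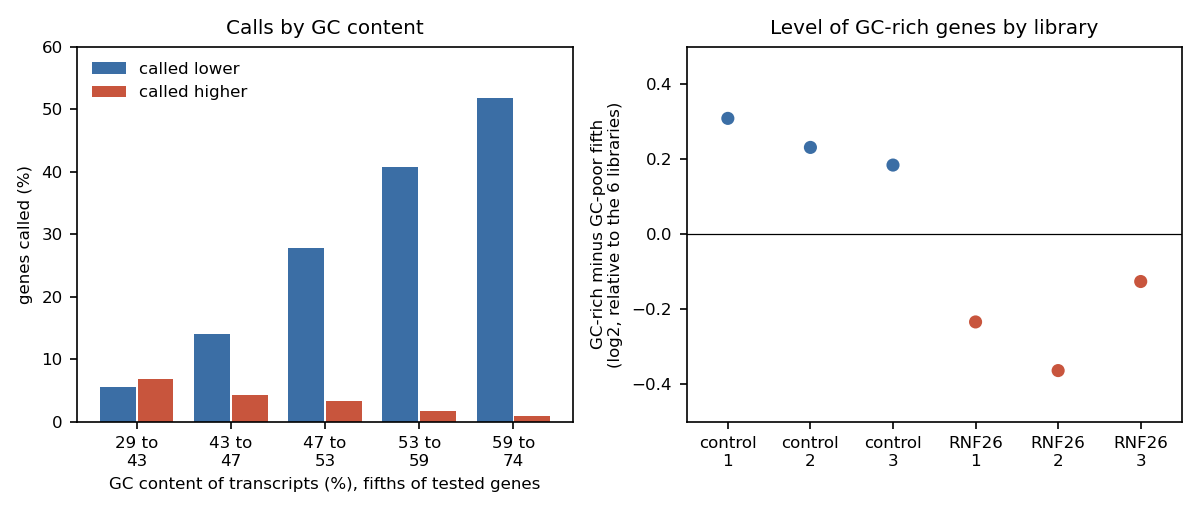
Left, the percentage of genes called lower and higher with RNF26 (bars) in 5 equal bins of GC content. Right, the log2 level of the most GC-rich bin minus that of the most GC-poor bin in each of the 6 libraries, relative to their mean. The share of genes that fell goes from 5.59% in the lowest bin to 51.8% in the highest, and the control points lie above 0 and the RNF26 points below it.

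Among stable calls averaging 20 TPM or more in the higher group and without overlap, the largest rises included secreted proteins, an actin regulator and noncoding RNAs. SERPINE2, a secreted inhibitor of serine proteases, was at 9.91, 9.85 and 8.67 TPM in control libraries and 24.0, 26.0 and 23.1 TPM with RNF26, a log2 difference of 1.28 (SE 0.0977, limma adjusted p = 0.00131). TMSB4X, which binds actin monomers, was at 659, 711 and 474 against 1420.2, 1332 and 1487 TPM. Its lowest RNF26 library lay well above its highest control, and the log2 difference was 1.22 (SE 0.158, limma adjusted p = 0.0023). PLAC8, a small cysteine-rich protein, went from 36.3, 40.2 and 27.6 to 71.5, 73.9 and 66.2 TPM. SLCO1B3, an organic anion transporter, went from 19.2, 21.8 and 21.0 to 40.5, 45.2 and 41.3 TPM. IER3IP1, a small protein of the endoplasmic reticulum, had the widest spread of these, with 18.4, 19.1 and 15.9 against 25.8, 43.7 and 35.8 TPM. That none of these 5 genes overlapped between the groups was required by their choice. Each was also called after the GC and length correction.

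Some abundant noncoding RNAs rose, among them hosts of small nucleolar RNAs. Of 20 tested host and other abundant noncoding RNAs 7 rose, none fell and 13 did not pass, with 4 stable rises, a median of 0.52 relative to all genes and 6 rises after the GC and length correction. The rises were 4 without the first control library. ZFAS1, a host of small nucleolar RNAs, was at 105, 169.6 and 102 TPM in control libraries and 246, 335 and 250.5 TPM with RNF26, a log2 difference of 1.17 (SE 0.214, limma adjusted p = 0.00668). SNHG29 and SNHG1, of the same kind, went from 479, 538 and 399 to 676, 738 and 720.5 TPM and from 243, 298 and 191 to 394, 439 and 388 TPM. In all 3 the highest value among the controls was that of the second library and lay below every RNF26 library. MALAT1, a nuclear noncoding RNA, went from 1085, 806 and 1369 to 1809, 2187 and 1986 TPM, a log2 difference of 0.90 that became 0.73 after the correction (limma adjusted p = 0.0563). It was not called with quantile normalization either (limma adjusted p = 0.1). TALAM1 is transcribed antisense to MALAT1 and went from 72.3, 68.3 and 81.8 to 148, 163 and 154 TPM. The sources used here do not say whether quantification used the strand of the reads, which leaves the values of these overlapping genes uncertain.

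By the same rule, the largest falls were in a noncoding RNA, structural and membrane proteins, and regulators of growth. H19, an imprinted noncoding RNA on chr11:1995176-2001470, was at 67.0, 39.3 and 63.0 TPM in control libraries and 12.2, 15.4 and 15.2 TPM with RNF26, a log2 difference of -1.88 (SE 0.202, limma adjusted p = 0.00159). MYADM, a membrane protein of lipid rafts, went from 39.7, 36.6 and 49.9 to 13.4, 14.9 and 13.2 TPM. MYBL2, a transcription factor of proliferating cells, went from 54.5, 42.1 and 54.6 to 18.9, 19.0 and 18.7 TPM. In all 3 the RNF26 libraries lay close together, while the controls were spread with the second library lowest. AP1B1, a subunit of a clathrin adaptor, went from 26.4, 21.6 and 24.4 to 8.77, 8.47 and 9.45 TPM. IPO4, a nuclear import receptor, went from 37.7, 23.4 and 39.7 to 12.9, 12.6 and 11.8 TPM. JUND, a subunit of the AP-1 transcription factor, went from 54.8, 40.4 and 68.1 to 22.1, 17.9 and 22.2 TPM. The choice of these genes required groups without overlap. For AP1B1, IPO4 and JUND the log2 differences of -1.34, -1.33 and -1.33 became -0.84, -0.95 and -0.88 after the GC and length correction.

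**Figure D3:**
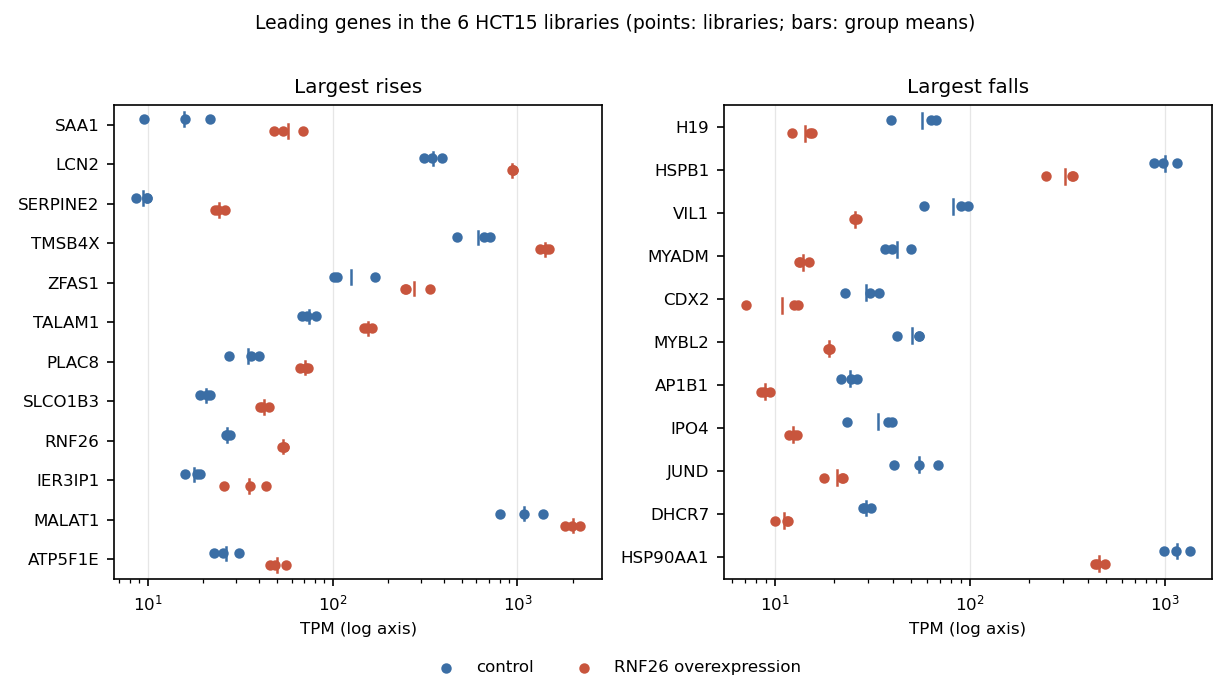
TPM on a log axis of the largest rises and falls among stable calls averaging 20 TPM or more in the higher group, with points for the 6 libraries and bars for group means. The groups do not overlap for any gene drawn, which the choice of genes required.

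Abundant stable falls included a tubulin and an actin, while the actin regulator TMSB4X was an abundant rise. TUBA1B, an alpha-tubulin, was at 2407, 2135 and 2212 TPM in control libraries and 1172, 1069 and 1096 TPM with RNF26. ACTB, cytoplasmic beta-actin, went from 1209, 1091 and 1034 to 624, 579.9 and 602 TPM. In both genes the groups were far apart relative to the spread within them, with log2 differences of -1.01 and -0.88 (limma adjusted p = 0.00143 and 0.00169). Of 21 tested tubulin genes and partners 14 fell and none rose, 9 of them stable, with a median of -0.19 relative to all genes, and 6 fell after the GC and length correction. TUBB2A, a beta-tubulin, differed by -0.99, TUBA4A, an alpha-tubulin, by -0.99 and TUBG1, the gamma-tubulin of microtubule nucleation, by -0.75 on the log2 scale. TUBA1C, another alpha-tubulin, differed by -0.61 (-0.39 corrected). Tubulin genes are near-identical copies and the split of reads between them is uncertain. PFN1, which binds actin monomers as TMSB4X does, went from 1661, 1543 and 1297 to 936, 785 and 909 TPM, and its call was lost after the correction (limma adjusted p = 0.0684). NACA, part of a complex on nascent proteins, and RPL36AL, a ribosomal protein, were abundant genes that rose, by 0.60 and 0.58. RPL36AL is not in the list of ribosomal protein genes that 1 fit left out, so it could be stable.

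Acute-phase and NF-kB genes moved in both directions. NF-kB is a family of transcription factors that drives inflammatory genes in epithelium, and acute-phase proteins are secreted under its control and that of STAT3. Of 38 tested genes 10 rose and 10 fell, against 3.46% and 27.1% of all genes, and 6 rises and 5 falls were stable. The median was 0.15 relative to all genes, and after the GC and length correction 11 rose and 3 fell. Without the third RNF26 library 6 fell. With median-ratio scaling 15 rose and 5 fell. The RefSeq promoter stretches of LCN2 and CFB, the secreted effectors with an NF-kB motif here among the genes named by rule, are printed as the 250 bases before the start of transcription in GRCh38.p14, with the match in capitals. LCN2 lies at chr9:128149203-128149452 and CFB at chr6:31945845-31946094, both plus strand.
LCN2: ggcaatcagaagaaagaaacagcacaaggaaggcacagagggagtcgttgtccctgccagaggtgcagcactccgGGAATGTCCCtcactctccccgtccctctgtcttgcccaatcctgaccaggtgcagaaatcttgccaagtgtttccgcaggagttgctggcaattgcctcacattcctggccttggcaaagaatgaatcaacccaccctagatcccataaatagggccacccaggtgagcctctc
CFB: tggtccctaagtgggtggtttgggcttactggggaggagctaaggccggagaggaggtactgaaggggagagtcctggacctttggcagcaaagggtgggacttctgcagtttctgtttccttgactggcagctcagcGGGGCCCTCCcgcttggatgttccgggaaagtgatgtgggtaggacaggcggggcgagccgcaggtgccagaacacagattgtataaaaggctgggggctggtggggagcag
An NF-kB motif on either strand was present in 21 of 47 windows of the list's genes (44.7%), each 300 bases long from 250 before to 50 after a start, and in 11.3% of all 35116 such windows. Called genes with a match were CCL20, CFB, CXCL2 and LCN2, which rose, and NFKB1, NFKB2, NFKBIA and TNIP1, which fell. Members with a match thus went in both directions, and a match is a description of the sequence, not a site.

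LCN2, a secreted protein that binds bacterial siderophores, was at 343, 392 and 311 TPM in control libraries and 937, 941 and 943 TPM with RNF26. The RNF26 libraries differed by a few TPM and lay far above every control, with a log2 difference of 1.43 (SE 0.106, limma adjusted p = 0.00131). SAA1, an acute-phase apolipoprotein at chr11:18266174-18269977, went from 15.9, 21.7 and 9.51 to 69.2, 54.0 and 48.1 TPM, a log2 difference of 1.85 (SE 0.269, limma adjusted p = 0.00307). Its near-identical copy SAA2, named after its values were seen and not stable, went from 6.74, 4.42 and 2.97 to 7.99, 12.9 and 14.2 TPM, and reads of the copies may be split between them. CFB, a protease of the alternative complement pathway, went from 8.78, 9.26 and 7.53 to 18.8, 18.2 and 18.8 TPM. SLPI, a secreted inhibitor of leukocyte proteases, went from 5.19, 3.85 and 4.86 to 10.9, 10.2 and 13.9 TPM. Both were clear of overlap, and their log2 differences of 1.04 and 1.16 became 1.24 and 1.31 after the GC and length correction. SERPINA3, a protease inhibitor, and CCL20, a chemokine, were also stable rises and are named after their values were seen, at 0.98 and 0.85. The chemokines CXCL1 and CXCL8, also named outside the rule, were at 28.7, 21.0 and 39.9 against 25.2, 29.2 and 30.3 TPM and at 30.5, 28.6 and 31.8 against 38.9, 41.8 and 37.7 TPM, so that CXCL1 overlapped and CXCL8, a call that was not stable, did not.

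ICAM1, an adhesion receptor for leukocytes, was at 64.4, 63.4 and 63.7 TPM in control libraries and 31.3, 34.9 and 33.2 TPM with RNF26, a log2 difference of -0.93 (-0.61 corrected). NFKB1, a subunit of NF-kB, went from 20.8, 21.8 and 21.0 to 11.5, 13.3 and 10.8 TPM, a log2 difference of -0.79 (-0.67 corrected). Both fell with no overlap and stayed called after the correction. RELA, the partner subunit, and NFKBIE, an inhibitor that holds NF-kB in the cytoplasm, differed by -0.76 and -0.70 and were not called after it (limma adjusted p = 0.134 and 0.136). STAT3, the factor downstream of interleukin 6, differed by -0.59 and stayed called (limma adjusted p = 0.0287). RELA, NFKBIE and STAT3 are named after their values were seen.

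**Figure D4:**
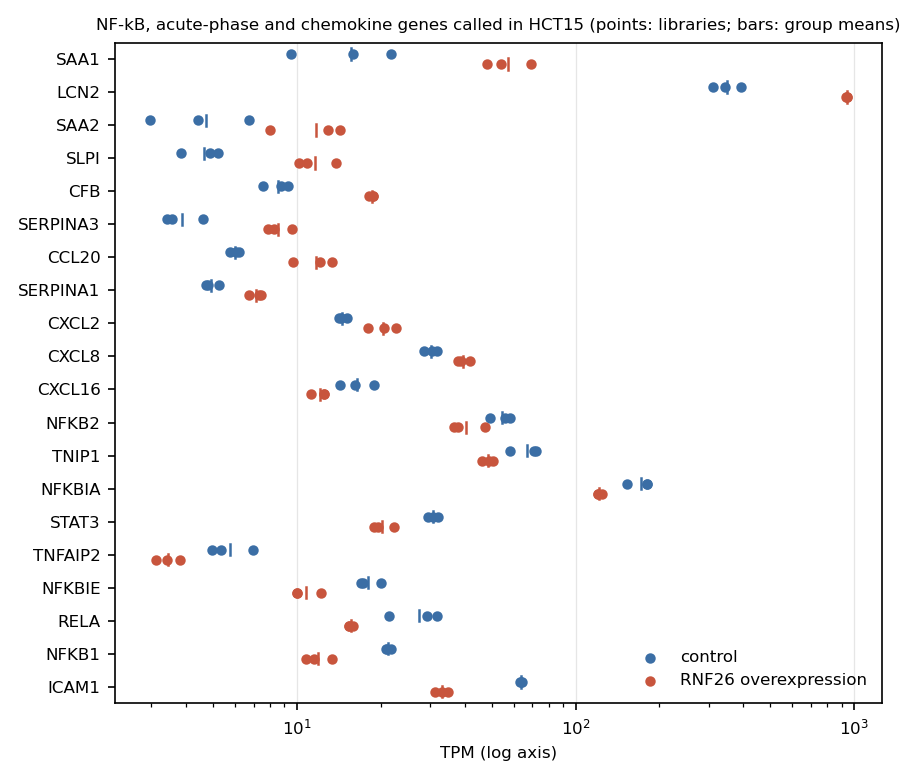
TPM on a log axis of the acute-phase, NF-kB and chemokine genes called in HCT15, ordered by log2 difference, with points for libraries and bars for group means. The 10 rises from SAA1 to CXCL8 are at the top, the 10 falls from CXCL16 to ICAM1 at the bottom, and the groups overlap for none of them.

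Few interferon-stimulated genes were called. Of 31 tested genes 1 rose and 4 fell, against 3.46% and 27.1% of all genes, all 5 stable, with a median of 0.21 relative to all genes, and 5 rose and 2 fell after the GC and length correction. With median-ratio scaling 5 rose and 4 fell. IFI27, an interferon-induced mitochondrial protein, was at 1.81, 0.99 and 0.17 TPM in control libraries and 3.81, 3.86 and 5.37 TPM with RNF26, low levels at which the log2(TPM + 1) difference of 1.503 understates the change. LY6E, a membrane protein that limits virus entry, went from 88.5, 97.2 and 76.3 to 49.6, 43.2 and 52.1 TPM. USP18, which removes ISG15 from proteins, differed by -0.62 (-0.34 corrected). OAS3, a sensor of double-stranded RNA, and IRF7, a master factor of interferon genes, differed by -0.67 and -0.74 and were not called after the correction (limma adjusted p = 0.0518 and 0.222). Among 18 tested genes of MHC class I presentation 4 fell and none rose, against 27.1% and 3.46% of all genes. Of these falls 2 were stable, and 2 genes fell without the first RNF26 library. After the correction 3 rose and 2 fell. The stable falls were CALR, a chaperone of the endoplasmic reticulum, at -1.06, and TAPBP, which loads peptides, at -0.79, the latter not called after the correction (limma adjusted p = 0.0581).

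Heat shock chaperones included some of the deepest falls. HSF1 is the transcription factor that drives these chaperones when proteins misfold. Of 31 tested genes 16 fell and 1 rose, 7 of the falls stable, with a median of -0.15 relative to all genes, and 10 fell and 1 rose after the GC and length correction. The count of falls was 7 without the first control library, 7 without the first RNF26 library and 8 without the third. HSPB1 and HSP90AA1, the members with the largest falls, hold the heat shock element GAANNTTC (either strand) in the 250 bases before a RefSeq start in GRCh38.p14, printed with the match in capitals. HSPB1 lies at chr7:76302423-76302672, plus strand, and HSP90AA1, for 1 of its 2 windows, at chr14:102087045-102087294, minus strand.
HSPB1: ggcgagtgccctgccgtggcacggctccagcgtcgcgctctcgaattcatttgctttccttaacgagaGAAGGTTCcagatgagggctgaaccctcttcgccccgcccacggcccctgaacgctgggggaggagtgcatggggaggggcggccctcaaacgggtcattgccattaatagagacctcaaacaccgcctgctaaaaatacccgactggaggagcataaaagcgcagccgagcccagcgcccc
HSP90AA1: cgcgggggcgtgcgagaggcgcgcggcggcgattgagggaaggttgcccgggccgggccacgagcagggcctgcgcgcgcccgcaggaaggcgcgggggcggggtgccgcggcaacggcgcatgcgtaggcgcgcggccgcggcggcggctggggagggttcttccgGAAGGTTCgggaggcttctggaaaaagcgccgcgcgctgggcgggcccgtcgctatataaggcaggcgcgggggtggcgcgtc
This element was present in 13 of 41 windows of the list's genes (31.7%) and in 6.77% of all windows. Of the genes called with a match, DNAJA1 rose, and DNAJB1, HSP90AA1, HSP90AB1, HSPA1B, HSPB1 and TCP1 fell. CCT2, CHORDC1, DNAJB6, HSPA8 and HSPD1 also held a match and were not called. Thus 7 of 12 genes with a match were called, beside 15 of the 29 list genes with a window. Here too a match is a description of the sequence, not a site.

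HSPB1, a small heat shock protein that holds unfolded proteins, was at 1146, 882 and 979 TPM in control libraries and 335, 246 and 334 TPM with RNF26. Every RNF26 library lay far below the lowest control, and the log2 difference was -1.72 (SE 0.155, limma adjusted p = 0.00132; -1.25 corrected). HSP90AA1, the inducible HSP90 chaperone, went from 1138, 986 and 1339 to 449.8, 489 and 439 TPM, a log2 difference of -1.32 (SE 0.128, limma adjusted p = 0.00133; -1.34 corrected). Its constitutive partner HSP90AB1, named after its values were seen and not stable, went from 1554, 1411 and 1503 to 1190.1, 1202 and 1141 TPM, a smaller log2 difference of -0.34. HSPA8, the constitutive HSP70 chaperone and also outside the rule, was at 1279.7, 1331 and 1207 against 1209, 1252 and 1145 TPM, with overlapping groups. BAG3 and BAG1, which couple HSP70 to its clients, differed by -0.99 and -0.61. HSF1 went from 24.1, 23.1 and 24.7 to 13.2, 13.5 and 16.1 TPM, and its call was lost after the correction (limma adjusted p = 0.0742).

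Chaperones of the endoplasmic reticulum, the compartment where RNF26 sits, moved both ways, and the balance of rises and falls turned with the scaling. Of 42 tested genes 2 rose and 12 fell, against 3.46% and 27.1% of all genes. There were 1 stable rise and 7 stable falls, with a median of 0.15 relative to all genes. After the GC and length correction 6 rose and 8 fell. The rises were also 6 without the second control library. With median-ratio scaling 13 rose and 7 fell, and without mitochondrial and ribosomal protein genes 10 rose and 9 fell. CALR, a lectin chaperone, went from 429.6, 329.5 and 397 to 179.7, 186 and 182 TPM. CRELD2, a disulfide isomerase induced by stress, went from 27.0, 26.1 and 25.6 to 10.7, 11.5 and 10.2 TPM. PDIA4, another disulfide isomerase, went from 175, 147 and 169 to 78.4, 78.0 and 79.0 TPM. In all 3 the RNF26 libraries lay within a narrow range below the controls. SYVN1, the ubiquitin ligase of endoplasmic reticulum degradation, differed by -0.74 and P4HB, a further isomerase, by -0.59. HSPA5, the main HSP70 of this compartment and named outside the rule, was at 296, 282 and 268 against 309.5, 341 and 302 TPM and was not called.

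ATF4, a factor made when amino acids are short, switches on transporters and synthetases for amino acids. Of 29 tested genes of this response 14 fell and none rose, 11 of them stable, with a median of -0.16 relative to all genes, and 10 fell and 1 rose after the GC and length correction. ATF4 itself, named outside the rule, was at 1033, 992 and 907 TPM in control libraries and 1098, 1186 and 1149 TPM with RNF26 and was not called. The amino acid response element TGATGNAA (either strand) was present in 8 of 39 windows of the list (20.5%) and in 3.62% of all windows. CHAC1, a member with a match and a stable fall, is shown for chr15:40953221-40953470, plus strand, as the 250 RefSeq bases before its start in GRCh38.p14, with the match in capitals.
CHAC1: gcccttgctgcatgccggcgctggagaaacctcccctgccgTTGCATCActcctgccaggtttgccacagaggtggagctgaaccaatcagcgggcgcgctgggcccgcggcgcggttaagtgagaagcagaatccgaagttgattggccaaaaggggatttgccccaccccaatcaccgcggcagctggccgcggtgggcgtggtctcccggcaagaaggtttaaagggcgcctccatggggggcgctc
CHAC1, which degrades glutathione, went from 159.8, 151 and 131 to 80.2, 75.4 and 83.8 TPM. SLC7A5, a transporter of large amino acids, went from 109, 104 and 109 to 47.5, 52.0 and 51.8 TPM. SLC7A1, a transporter of arginine and lysine, went from 29.8, 29.9 and 30.0 to 12.9, 16.4 and 14.7 TPM. The groups were separate in all 3, with log2 differences of -0.87, -1.07 and -0.98 (-0.42, -0.52 and -0.67 corrected). SESN2, which restrains mTORC1, and CEBPB, a transcription factor, differed by -1.08 and -0.97.

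Genes of cholesterol synthesis and uptake fell, with no rise. SREBF2 is the transcription factor of this pathway, and SCAP carries it to the Golgi when sterols are low. Of 27 tested genes 18 fell and none rose, 11 of them stable, with a median of -0.21 relative to all genes, and 13 fell after the correction. The sterol response element TCACNCCAC (either strand) was present in 1 of 27 windows of the list (3.7%) and in 1.13% of all windows. That window belongs to SREBF2, shown for chr22:41832855-41833104, plus strand, as the 250 RefSeq bases before its start in GRCh38.p14, with the match in capitals 133 bases before the start.
SREBF2: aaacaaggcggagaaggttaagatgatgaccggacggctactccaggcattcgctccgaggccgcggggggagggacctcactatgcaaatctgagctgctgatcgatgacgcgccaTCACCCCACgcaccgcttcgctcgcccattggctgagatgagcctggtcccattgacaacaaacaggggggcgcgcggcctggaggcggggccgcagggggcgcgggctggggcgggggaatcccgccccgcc
SREBF2 went from 36.8, 34.0 and 35.1 to 15.9, 17.7 and 17.9 TPM, and SCAP from 12.9, 12.5 and 13.4 to 5.86, 5.0 and 5.88 TPM. DHCR7, which makes cholesterol from its direct precursor, went from 30.9, 28.1 and 28.5 to 11.5, 10.0 and 11.7 TPM. In all 3 the highest RNF26 library lay far below the lowest control.

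Of 29 tested genes of fatty acid synthesis and lipid droplets 12 fell and 1 rose, 6 of the falls stable, with a median of -0.11 relative to all genes, and 5 fell and 4 rose after the GC and length correction. With median-ratio scaling 7 rose and 6 fell. FASN, the fatty acid synthase, went from 17.1, 17.8 and 17.5 to 6.08, 5.67 and 5.17 TPM, a log2 difference of -1.48 (SE 0.0964, limma adjusted p = 0.00131; -1.16 corrected). SREBF1, its transcription factor, went from 21.3, 20.8 and 20.5 to 8.81, 9.34 and 9.47 TPM. Both groups were tight and separate. ACLY, which makes cytosolic acetyl-CoA, PLIN3, a lipid droplet coat protein, and PNPLA2, a triglyceride lipase, differed by -0.99, -1.03 and -0.74. The call of PNPLA2 was lost after the correction (limma adjusted p = 0.104).

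Falls were called among both components and targets of the Wnt pathway. Of 37 tested ligands, receptors and signal proteins 18 fell and none rose, 13 of them stable, with a median of -0.30 relative to all genes, and 5 fell and 1 rose after the GC and length correction. LRP5, a co-receptor, was at 21.9, 22.2 and 20.3 TPM in control libraries and 8.21, 9.22 and 8.80 TPM with RNF26, a log2 difference of -1.21 (SE 0.0925, limma adjusted p = 0.00131; -0.86 corrected). AXIN1, a scaffold of the complex that degrades beta-catenin, went from 24.7, 23.4 and 28.1 to 11.97, 11.5 and 12.4 TPM. LRP5 and AXIN1 fell without overlap of the groups. DVL1 and DVL3, which relay the receptor signal, differed by -0.72 and -0.63 and were not called after the correction (limma adjusted p = 0.0837 and 0.0913). CSNK1D, a kinase of the pathway and of the clock, differed by -0.67 (-0.33 corrected). Beta-catenin mRNA (CTNNB1) and APC, both named outside the rule, were at 159, 169.8 and 159 against 137, 147 and 135 TPM and at 7.18, 4.99 and 9.76 against 5.62, 5.85 and 4.64 TPM. Neither was called, and APC overlapped between the groups.

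Among 28 tested Wnt target genes 23 fell and none rose, against 27.1% of all genes, and 16 falls were stable. The median was -0.53 relative to all genes and -0.35 after the GC and length correction, when 9 fell. ABCB1, a drug efflux pump, went from 106, 99.5 and 105 to 43.5, 42.5 and 46.7 TPM, a log2 difference of -1.21 (SE 0.0809, limma adjusted p = 0.00131; -1.17 corrected). ETS2, a transcription factor, went from 99.1, 91.8 and 98.1 to 43.9, 48.7 and 47.4 TPM. ZNRF3, a ligase that removes Wnt receptors, went from 11.9, 11.3 and 12.8 to 3.88, 4.22 and 4.93 TPM. The RNF26 libraries lay below the controls in all 3. SOX4, a transcription factor, differed by -1.14 (-0.82 corrected) and MYC, which drives cell growth, by -1.001 (-0.61 corrected). The TCF/LEF motif CTTTGAT (either strand) was present in 1 of 23 windows of the list (4.35%), that of SP5, and in 2.62% of all windows.

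Immediate early genes, which respond within minutes to growth factors and serum, also fell. Of 33 tested genes 27 fell and none rose, 19 of them stable, with a median of -0.43 relative to all genes, and 11 fell and 1 rose after the GC and length correction. The CArG box, bound by SRF, was present on either strand in 2 of 30 windows of the list (6.67%), those of EGR1 and SRF, and in 1.29% of all windows. EGR1 holds a pair of matches before its start and is printed for chr5:138465229-138465478, plus strand, from RefSeq of GRCh38.p14, with both in capitals.
EGR1: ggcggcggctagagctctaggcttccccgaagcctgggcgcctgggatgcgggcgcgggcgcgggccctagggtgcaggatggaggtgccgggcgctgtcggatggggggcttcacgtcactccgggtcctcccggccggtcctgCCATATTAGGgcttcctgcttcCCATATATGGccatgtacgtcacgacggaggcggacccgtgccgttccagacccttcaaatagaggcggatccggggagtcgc
EGR1, a zinc finger transcription factor named outside the rule, went from 11.3, 10.3 and 15.5 to 4.55, 4.86 and 4.15 TPM, a log2 difference of -1.26 (SE 0.155, limma adjusted p = 0.00199; -0.85 corrected). SRF, likewise outside it, went from 11.9, 11.5 and 13.4 to 6.31, 7.54 and 7.53 TPM and was not called after the correction (limma adjusted p = 0.272). In both genes the groups were separate. IER2, a nuclear protein of this response, went from 84.9, 63.8 and 79.4 to 34.7, 35.7 and 39.6 TPM, and CCN2, a secreted matrix protein, from 5.70, 4.94 and 4.67 to 1.96, 1.74 and 1.56 TPM. ZFP36L1, which destabilises mRNA, differed by -0.93 (-0.44 corrected) and JUN, a subunit of AP-1, by -0.70, a call lost after the correction (limma adjusted p = 0.0654).

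Genes of the ERK pathway and its receptors fell in part. ERK is the kinase at the end of the RAS cascade, and it induces its own inhibitors. Of 18 tested feedback genes 10 fell and none rose, 6 of them stable, with a median of -0.25 relative to all genes, and 5 fell after the GC and length correction. The count was 6 without the first control or the first RNF26 library. EPHA2, an ephrin receptor, went from 43.2, 42.0 and 41.5 to 19.0, 19.5 and 20.7 TPM, and PHLDA1, a protein induced by ERK, from 70.6, 68.0 and 72.5 to 34.0, 38.9 and 34.5 TPM. DUSP8, a phosphatase of MAP kinases, was low and went from 6.98, 5.68 and 5.16 to 2.22, 0.84 and 0.93 TPM. These 3 genes did not overlap between the groups, and FOSL1, an AP-1 subunit, and SPRED2, an inhibitor of RAS signalling, differed by -0.78 and -0.70. Of 19 tested receptors, ligands and RAF or RAS genes 8 fell and 1 rose, 7 falls and the rise being stable, and 6 fell and 2 rose after the correction. ERBB2, a receptor of the EGFR family, went from 32.7, 30.0 and 35.5 to 14.7, 16.3 and 17.7 TPM. MST1R, a receptor related to MET, HBEGF, a ligand of EGFR, and IRS1, an insulin receptor substrate, differed by -0.93, -0.75 and -0.87. ARAF, a RAF kinase, differed by -0.72, and its call was lost after the correction (limma adjusted p = 0.0748).

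Falls were also called among genes of epithelial structure and colon identity. Of 16 tested microvillus and colon identity genes 9 fell and 2 rose, 7 of the falls stable, with a median of -0.38 relative to all genes, and 6 fell and 1 rose after the GC and length correction. VIL1, the villin that bundles actin in microvilli, was at 89.6, 57.8 and 97.7 TPM in control libraries and 25.6, 25.4 and 26.4 TPM with RNF26, a log2 difference of -1.59 (SE 0.183, limma adjusted p = 0.00179; -1.25 corrected). CDX2, the intestinal homeobox factor, went from 30.6, 22.8 and 34.2 to 13.0, 7.07 and 12.5 TPM, and its corrected difference of -0.91 was not called (limma adjusted p = 0.0518). For both genes the second library was the lowest of the controls and still lay above every RNF26 library. KLF5, a factor of crypt cells, went from 57.3, 74.3 and 65.3 to 27.98, 29.3 and 27.1 TPM. GATA6 and HNF4A, factors of gut epithelium, differed by -1.06 and -0.84, and each stayed called after the correction. Of 9 tested keratins 1 rose and 2 fell, and after the correction 1 rose and none fell. KRT7, a simple keratin and the stable rise, went from 11.4, 10.2 and 9.50 to 16.8, 15.7 and 17.9 TPM.

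Among junction genes falls but no rises were called. Of 23 tested adherens junction and desmosome genes 15 fell, 10 of them stable, with a median of -0.29 relative to all genes, and 8 fell after the GC and length correction. JUP, plakoglobin, which links cadherins to the cytoskeleton, went from 68.8, 59.1 and 70.8 to 27.9, 25.5 and 28.1 TPM, a log2 difference of -1.25 (SE 0.0989, limma adjusted p = 0.00131; -0.79 corrected). PKP2, a desmosome protein, went from 72.7, 70.4 and 78.4 to 41.8, 44.3 and 42.9 TPM. CDH1, E-cadherin, went from 73.8, 71.9 and 74.0 to 44.5, 54.5 and 50.4 TPM, and in all 3 the groups were separate. PPL, a desmosome linker, and VCL, which ties cadherins and integrins to actin, differed by -0.84 and -0.67. NECTIN2, an adhesion protein, differed by -0.57, a call lost after the correction (limma adjusted p = 0.201). Of 24 tested claudins and tight junction genes 12 fell and none rose, 7 of them stable, and 5 fell and 1 rose after the correction. CLDN2, a claudin that forms cation channels, went from 81.9, 76.0 and 80.7 to 35.4, 34.3 and 36.4 TPM. TJP3, a scaffold of the tight junction, differed by -0.89.

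Integrin and focal adhesion genes fell in 17 of 26 tested cases with no rise, 9 of them stable, with a median of -0.33 relative to all genes, and 9 fell and 1 rose after the GC and length correction. The count was 10 without the first control library and 10 without the first or the third RNF26 library. ITGB4, the integrin of hemidesmosomes, went from 52.2, 52.5 and 49.95 to 24.6, 24.1 and 24.6 TPM, and FLNA, which crosslinks actin, from 145, 146 and 148 to 67.4, 85.7 and 79.7 TPM. ITGB4 values were tight in both groups, and FLNA varied more with RNF26. ZYX and BCAR1, adaptors at focal adhesions, and ACTN4, an actin crosslinker, differed by -1.03, -0.97 and -0.96. Among 25 tested EMT and matrix genes 10 fell and 2 rose, with 5 stable falls and SERPINE2 as the stable rise, and a median of 0.02 relative to all genes. The count of falls was 6 without the first RNF26 library, and 3 rose and 3 fell after the correction. PLAU, the urokinase that activates plasminogen, went from 17.7, 17.2 and 16.8 to 9.32, 9.28 and 9.32 TPM. The urokinase thus fell, with separate groups, while the protease inhibitor SERPINE2 rose. MMP14 and MMP15, matrix proteases at the membrane, differed by -1.24 and -0.77, the latter not called after the correction (limma adjusted p = 0.0605).

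Of 23 tested genes of the YAP and TEAD pathway, which responds to cell density, 15 fell and 1 rose, 9 of the falls stable, with a median of -0.32 relative to all genes, and 6 fell and 1 rose after the GC and length correction. NF2, an upstream inhibitor, went from 15.4, 15.1 and 15.5 to 8.10, 9.06 and 7.75 TPM, and AJUBA, an adaptor of the kinases that restrain YAP, from 92.5, 91.1 and 77.9 to 45.1, 52.5 and 52.7 TPM. Both fell with separate groups. AMOTL2, which holds YAP at junctions, and TEAD4, the DNA-binding partner, differed by -0.71 and -0.62, and neither was called after the correction (limma adjusted p = 0.112 and 0.157). For TGF-beta, 13 of 28 tested receptors, SMADs and targets fell and 1 rose, 6 of the falls stable, and 5 fell and 2 rose after the correction. The count of falls was 8 without the first and 7 without the third RNF26 library. BMP4, a secreted ligand, went from 155, 151 and 147 to 89.9, 81.7 and 92.0 TPM. TGIF1 and TGIF2, repressors of SMAD targets, differed by -0.56 and -0.69. SKI, another repressor, and TGFB1, a ligand, differed by -0.72 and -0.67 and were not called after the correction (limma adjusted p = 0.0584 and 0.0608).

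Falls were called among cell cycle genes. Of 49 tested S phase genes 27 fell and 1 rose, with 16 stable falls, a median of -0.19 relative to all genes, and 18 falls and 2 rises after the GC and length correction. The count of falls was 17 without the first control and 16 without the first RNF26 library. MCM2, a subunit of the replicative helicase, went from 55.7, 53.6 and 55.1 to 24.2, 28.5 and 29.3 TPM, and TYMS, which makes thymidylate, from 214, 197 and 189 to 109.5, 114 and 103 TPM. CCNE2, a cyclin of S phase entry and the stable rise of this list, went from 4.71, 4.51 and 4.38 to 8.72, 8.69 and 9.40 TPM, a log2 difference of 0.84 (SE 0.0987, limma adjusted p = 0.00187; 0.75 corrected). CCNE2 thus moved against MCM2 and TYMS, with separate groups in all 3. POLD2, a DNA polymerase subunit, and CDC45, a helicase cofactor, differed by -0.81 and -0.82.

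Of 49 tested genes of G2 phase and mitosis 21 fell and none rose, 9 of them stable, with a median of -0.09 relative to all genes, and 8 fell after the GC and length correction. The count was 12 without the first and 13 without the third RNF26 library. PLK1, a mitotic kinase, went from 60.3, 49.1 and 54.5 to 25.9, 26.6 and 26.2 TPM, a log2 difference of -1.03 (-0.71 corrected). INCENP, a scaffold of the chromosomal passenger complex, went from 13.8, 12.9 and 15.6 to 6.26, 6.52 and 6.75 TPM. Both were separate between the groups. CDC25B, a phosphatase that activates CDK1, and TPX2, a spindle factor, differed by -0.81 and -0.61. CDC20, the activator of the anaphase-promoting complex, differed by -0.57 and was not called after the correction (limma adjusted p = 0.101). Of 20 tested regulators of the G1 to S transition 7 fell and none rose, 3 of them stable, with a median of 0.09 relative to all genes, and 4 fell without the first control or the first RNF26 library. After the correction 2 fell and 1 rose, and with quantile normalization 2 fell and 3 rose. CDKN1A, an inhibitor of cyclin-dependent kinases and target of p53, went from 23.4, 27.2 and 22.1 to 13.9, 13.5 and 14.4 TPM. CCND1, cyclin D1, and E2F4, a repressor with RB proteins, differed by -0.57 and -0.48 and were not called after the correction (limma adjusted p = 0.202 and 0.391).

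Among 29 tested p53 genes and targets 14 fell and none rose, 9 of them stable, with a median of -0.15 relative to all genes, and 4 fell and 1 rose after the GC and length correction. GDF15, a secreted stress cytokine, went from 345, 282 and 320.4 to 146, 137 and 157 TPM, a log2 difference of -1.10 (SE 0.105, limma adjusted p = 0.00132; -0.75 corrected). AEN, a nuclease, and BBC3, a killer protein of the BCL2 family, differed by -0.59 and -0.56 and were not called after the correction (limma adjusted p = 0.223 and 0.451). Of 26 tested BCL2 family and apoptosis genes 7 fell and none rose, 5 of them stable, with a median of -0.004 relative to all genes, so that the share of falls was that of all genes (27.1%). After the correction 3 fell and 2 rose. BCL2L1 and MCL1, which block apoptosis, went from 113, 100.1 and 113 to 64.4, 70.4 and 67.9 TPM and from 176, 135 and 199.8 to 94.7, 101 and 107 TPM. CASP6, an executioner caspase, differed by -0.62. BOK, a killer protein, differed by -0.59 and was not called after the correction (limma adjusted p = 0.423).

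Falls were called among genes of ribosome assembly, and rises among those of the ribosome itself. Ribosome biogenesis factors process ribosomal RNA in the nucleolus. Of 43 tested factors 24 fell and none rose, 13 of them stable, with a median of -0.21 relative to all genes, and 12 fell after the GC and length correction. The count was 15 without the first or the third RNF26 library. BOP1, which matures the large subunit, went from 35.6, 31.7 and 30.8 to 13.8, 13.0 and 14.9 TPM, a log2 difference of -1.18 (-0.75 corrected). MYBBP1A and RRP12, nucleolar proteins, went from 30.3, 26.7 and 34.9 to 13.2, 16.1 and 14.6 TPM and from 17.8, 14.8 and 18.9 to 7.10, 7.45 and 9.10 TPM. The groups were separate in these 3. NOC2L and NOC4L, export factors of ribosomal subunits, differed by -0.73 and -0.82.

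Of 79 tested cytosolic ribosomal protein genes 19 rose and none fell, and none could be stable by the definition above. The median was 0.58 relative to all genes, and 27 rose after the GC and length correction and 47 with median-ratio scaling. With quantile normalization the median was 0.18 relative to all genes, and 14 rose and 1 fell. The count of rises was 46 without the second control and 5 without the first control library. It was 1, 5 and 4 without the first, the second and the third RNF26 library, and without the third control, whose ribosomal protein share was lowest, it was 20. RPS18, a protein of the small subunit, was at 6430.5, 7691 and 5139.6 TPM in control libraries and 10079.7, 10075 and 10866 TPM with RNF26, without overlap. RPL41, the smallest protein of the large subunit, was at 11256, 12719.6 and 8588 TPM against 15185, 14286 and 15151 TPM, also without overlap, and was not called (limma adjusted p = 0.0807). Many ribosomal protein genes have processed copies in the genome, which makes their TPM uncertain. Of 34 tested translation factors 2 rose and 8 fell, against 3.46% and 27.1% of all genes. Of the falls 2 were stable, and 4 factors rose and 2 fell after the correction. With 1 library left out the falls were 3 without the first control or the first or the third RNF26 library and 4 without the second RNF26 library. EIF3B, a subunit of an initiation factor, differed by -0.72, and EIF4G1, the scaffold that brings mRNA to the ribosome, by -0.75, the latter not called after the correction (limma adjusted p = 0.0548).

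Mitochondrial genes moved unevenly. None of the 13 tested genes of the mitochondrial genome was called by limma, nor after the correction. Without the third control, whose mitochondrial share was highest, 3 rose and the median relative to all genes went from 0.19 to 0.35, and without the second control 1 fell. With quantile normalization 1 fell, and with median-ratio scaling MT-ND3, a subunit of complex I named outside the rule, rose (limma adjusted p = 0.0257). MT-ND4L, a subunit of complex I, was at 40884, 30207 and 60594 TPM in control libraries and 30720.4, 29569 and 32968 TPM with RNF26. MT-ATP8, of the ATP synthase, was at 23549, 18527 and 44917 against 26452, 31723 and 31135 TPM. The groups overlapped in both, with the third control highest. Of 77 tested nuclear genes of oxidative phosphorylation 8 rose and 8 fell, against 3.46% and 27.1% of all genes. There were 3 stable rises and 5 stable falls, with a median of 0.36 relative to all genes. After the GC and length correction 13 rose and 4 fell. With median-ratio scaling 29 rose and 5 fell, and without mitochondrial and ribosomal protein genes 25 rose and 7 fell. The rises were 28 without the second control, 3 without the first control and 3, 3 and 4 without the first, the second and the third RNF26 library, and the falls were 5 without the first control. ATP5F1E, the smallest subunit of the ATP synthase, went from 25.5, 31.2 and 22.9 to 45.7, 56.2 and 49.0 TPM, a log2 difference of 0.90 (0.88 corrected). UQCRC1, a core protein of complex III, went from 353, 287 and 275 to 154, 154 and 168 TPM, and SDHA, of complex II, from 114, 103 and 96.3 to 61.9, 63.0 and 61.8 TPM. Members of the same machinery thus went in opposite directions, each with separate groups. NDUFV1, of complex I, differed by -0.64, and CYC1, cytochrome c1, by -0.62, which was not called after the correction (limma adjusted p = 0.245). Of 75 tested mitochondrial ribosomal protein genes 5 rose and 11 fell, against 3.46% and 27.1% of all genes, with 3 and 4 stable and a median of 0.22 relative to all genes. The balance turned to 25 rises and 4 falls with median-ratio scaling and to 12 rises and 4 falls after the correction, and 10 rose without the second control and 3 without the first control or any of the RNF26 libraries. Among them MRPS2 and MRPL49 differed by -0.90 and -0.80 and MRPS33 by 0.59.

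Glycolysis and hypoxia genes fell in 14 of 33 tested cases with no rise, 11 of them stable, with a median of -0.17 relative to all genes, and 8 fell and 1 rose after the GC and length correction. PKM, the pyruvate kinase at the end of glycolysis, was at 771, 608 and 712 TPM in control libraries and 308, 336 and 311 TPM with RNF26, a log2 difference of -1.12 (SE 0.111, limma adjusted p = 0.00134; -0.78 corrected). GPI, an isomerase of the early steps, went from 277, 202 and 269.9 to 125, 113 and 108 TPM, and SLC2A1, the glucose transporter, from 41.2, 37.5 and 39.0 to 21.9, 14.9 and 17.8 TPM. In each the RNF26 libraries lay below every control. HK1, hexokinase, and PFKP, phosphofructokinase, differed by -0.96 and -0.74. Of 26 tested NRF2 targets and glutathione genes 6 fell and none rose, against 27.1% and 3.46% of all genes. Of the falls 3 were stable. The list median was 0.03 relative to all genes, and 2 fell and 2 rose after the correction. Among the stable falls were TKT, an enzyme of the pentose phosphate pathway, at -0.53, and GSR, which reduces glutathione, at -0.50. TKT was not called after the correction (limma adjusted p = 0.435).

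Of 41 tested lysosome and V-ATPase genes 16 fell and 1 rose, 10 of the falls stable, with a median of 0.01 relative to all genes, and 8 fell and 1 rose after the GC and length correction. With median-ratio scaling 10 rose and 10 fell. CTSD, a lysosomal protease, went from 117, 98.6 and 105 to 56.2, 57.6 and 57.7 TPM. ATP6AP1, ATP6V0C and ATP6V0A1, parts of the proton pump, differed by -0.95, -0.85 and -0.74, and TFE3, a transcription factor of lysosome genes, by -0.74. Of 36 tested proteasome genes 5 fell and none rose, against 27.1% and 3.46% of all genes. Of the falls 4 were stable, and the list median was 0.12 relative to all genes. After the correction 3 rose and 3 fell, and with median-ratio scaling 7 rose and 4 fell. Without the second control library 10 fell and 4 rose, and without the third 8 fell. PSMD2, of the regulatory particle, went from 149, 145 and 130.5 to 74.5, 76.5 and 71.0 TPM. PSMD3 and PSMD1, of the same particle, differed by -0.76 and -0.56. Of 18 tested clock genes 6 fell and none rose, against 27.1% and 3.46% of all genes. Of the falls 5 were stable. The list median was -0.186 relative to all genes, and 4 fell after the correction. NR1D1, a repressor of the clock, went from 8.0, 6.50 and 9.97 to 2.27, 2.10 and 2.15 TPM, and BMAL1, the activator it represses, from 11.2, 9.93 and 10.8 to 6.03, 6.65 and 4.56 TPM. NR1D1 and BMAL1 fell together, each with separate groups.

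Falls were called among chromatin regulators. Of 53 tested chromatin remodelers and histone modifying enzymes 35 fell and none rose, 17 of them stable, with a median of -0.30 relative to all genes, and 14 fell after the GC and length correction. The count was 18 without the first and 22 without the third RNF26 library. SMARCA4, the motor of a remodeling complex, went from 76.9, 63.5 and 82.9 to 32.1, 34.7 and 34.5 TPM, and DNMT1, the maintenance DNA methyltransferase, from 36.0, 35.6 and 42.4 to 16.6, 18.7 and 21.1 TPM. The groups were separate in both. EHMT2, a histone H3 methyltransferase, HDAC5, a histone deacetylase, and SMARCB1, a core remodeling subunit, differed by -0.80, -0.88 and -0.66.

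Splicing factors of the SR and hnRNP families fell in 20 of 42 tested cases with no rise, 14 of them stable, with a median of -0.11 relative to all genes, and 15 fell after the GC and length correction. HNRNPA2B1, which binds nascent transcripts, went from 1051, 742 and 1081 to 433, 524 and 472 TPM, and SRSF2, an SR protein of exon choice, from 289, 192 and 229.8 to 104, 102 and 114 TPM. The second control was lowest in both genes and lay above every RNF26 library. SRSF6, U2AF2, HNRNPL and PTBP1, further splicing factors, differed by -0.90, -0.86, -0.79 and -0.92. Of 43 tested RNA polymerase II and Mediator genes 13 fell, a share near that of all genes (27.1%), and 1 rose, 8 of the falls stable, with a median of 0.05 relative to all genes, and 6 fell and 5 rose after the correction. With median-ratio scaling 8 fell and 10 rose, and without the second control library 4 rose. MED16, of the Mediator tail that contacts activators, went from 14.2, 12.4 and 12.4 to 4.94, 4.46 and 4.75 TPM. MED15 and MED24, also of the tail, differed by -1.08 and -0.94, and MED13L, of the kinase module, by -0.67.

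**Figure D5:**
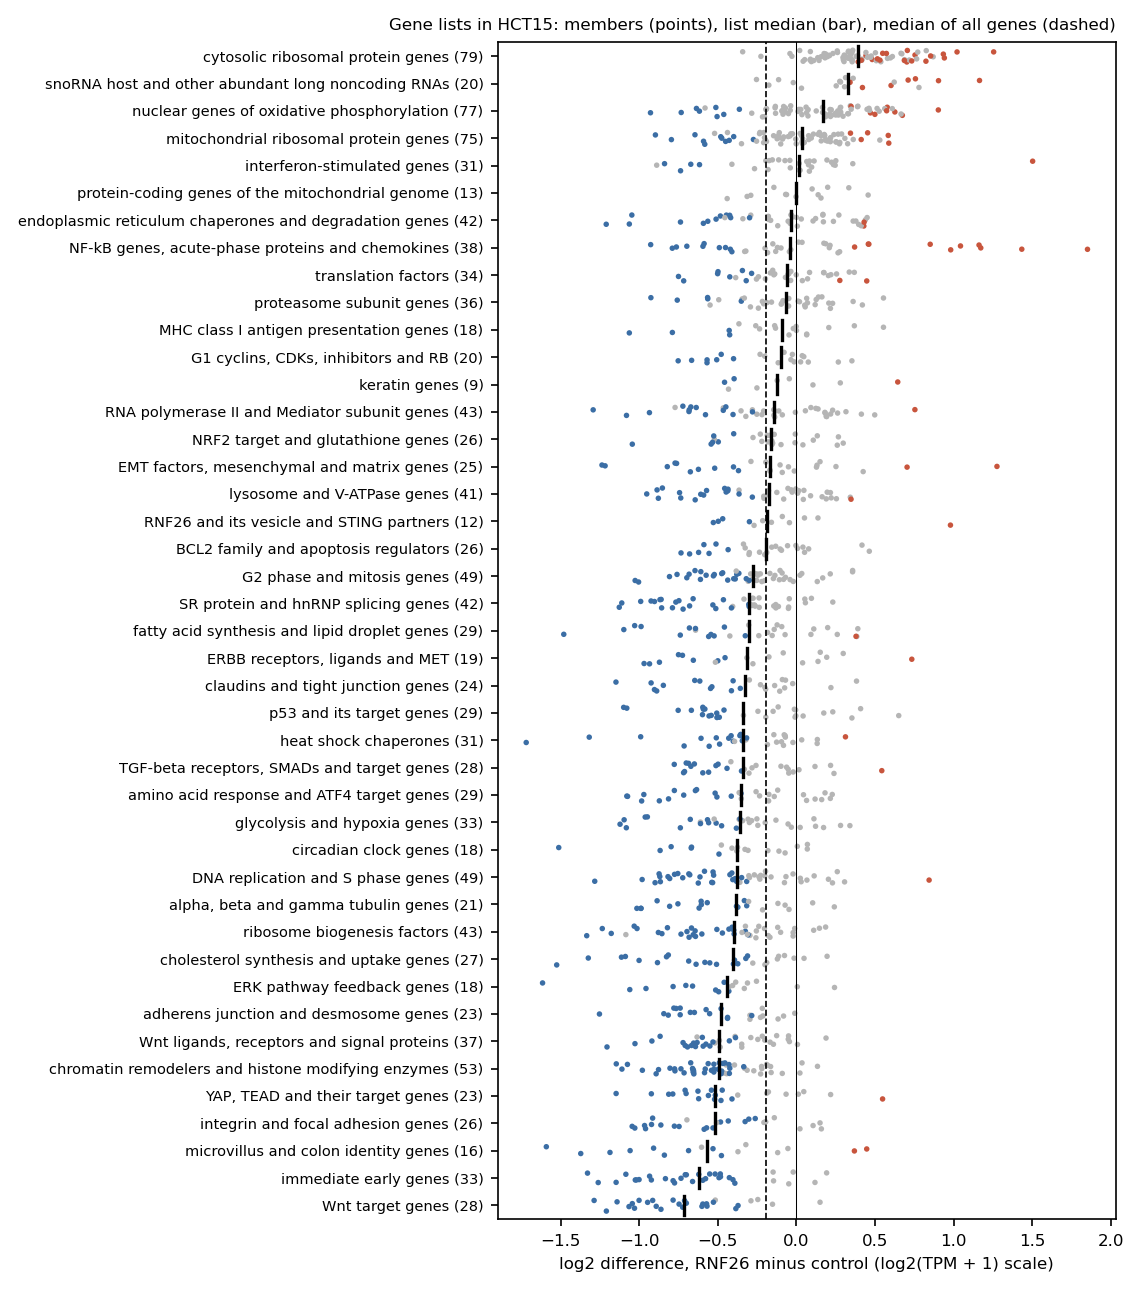
Log2 difference of every tested member (points, red where called higher, blue where called lower, grey where not called) by gene list, with the list median (bar), the median of all genes (dashed line) and the number of tested members in brackets. Relative to all genes, Wnt targets have the lowest median at -0.53 (-0.35 with the GC and length correction, not drawn) and cytosolic ribosomal protein genes the highest at 0.58 (0.56), while with quantile normalization the latter are at 0.18 and the noncoding RNA list is highest at 0.56.

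In HCT116, RNF26 averaged 16.8 TPM in control and 296 TPM in RNF26 libraries. The difference of the RNF26 effect between the lines was tested by limma over all 12 libraries. It was called for RNF26 and for every other leading or abundant gene named above by its rank. It was also called for 160 of the 166 stable genes named from lists. Most of these genes were chosen by their difference in the same HCT15 libraries, which enter this test, so the choice favoured a call. LCN2 averaged 0.69 TPM in HCT116 control and 0.73 TPM in HCT116 RNF26 libraries, PLAC8 0.15 and 0.13 TPM and VIL1 0.46 and 0.41 TPM. These genes were thus near 0 in that line with or without RNF26. HSP90AA1 averaged 2200 TPM in HCT116 control and 2251 TPM in HCT116 RNF26 libraries, HSPB1 860.5 and 901.2 TPM and TUBA1B 2398 and 2197 TPM. Genes whose effect differed between the lines were thus not all low in HCT116.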

How the data were processed

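RNA was extracted with TRIzol, and polyadenylated RNA was made into stranded libraries, per the labels' protocols. The authors deposited 1 table of TPM for the 12 libraries, 3 in each group; the submitters' processing notes name fastp, HISAT2, StringTie, RSEM and GRCh38. The sources used here give no versions, annotation release or strand use in quantification. TPM keeps no depth, so the precision of low values is unknown. All value columns matched a label (0 left unused). Gene symbols, positions, GC content and transcript lengths came from GENCODE release 29, and promoters from RefSeq.

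Genes with 1 TPM or more in 3 or more of the 6 HCT15 libraries were fitted on log2(TPM + 1) with limma 3.58.1 in R 4.3.3, with a mean-variance trend and Benjamini-Hochberg adjustment at 0.05. The script was tested on simulated data. Tables and figures used Python 3.11.15, pandas 2.3.3, scipy 1.17.1 and matplotlib 3.10.9. Alternatives were another pseudocount, filter, scaling, trend, fit over 12 libraries, replicate block, each library left out, GC and length correction (spline with 5 degrees of freedom, 95.9% of genes with a value) and, added after seeing the data, median-ratio scaling without the third control. The members and lists were chosen with earlier results of these data known.

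Genes named were RNF26, the 12 largest stable rises and falls whose higher group averaged at least 20 TPM, with no overlap and an established symbol, the 6 most abundant stable calls each way with an absolute log2 difference of 0.5 or more, and up to 5 stable calls of smallest p per list. In a list with no stable call, 2 abundant members are given as values. Others are said to be outside the rule. Some genes that the rule picks are not reported here, while list counts include them.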

Additional observations from a re-analysis of the deposited data

Results flagged for a closer look

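The effect of RNF26 (log2 difference in HCT15 minus that in HCT116) was tested in limma over all 12 libraries and differed between the lines for many genes: it was higher in HCT15 for 294 and lower for 3008 of the tested genes. For RNF26 itself the difference was -3.07, since the gene was raised further in HCT116. Among the genes that rose most in HCT15 it was SAA1 1.96, LCN2 1.40, SERPINE2 1.42, TMSB4X 1.17, ZFAS1 1.13, TALAM1 1.11, PLAC8 1.04, SLCO1B3 0.82, IER3IP1 0.75, MALAT1 0.97 and ATP5F1E 0.70. Among those that fell most it was H19 -1.34, HSPB1 -1.79, VIL1 -1.54, MYADM -1.34, CDX2 -0.93, MYBL2 -1.22, AP1B1 -1.37, IPO4 -1.27, JUND -1.15, DHCR7 -1.40 and HSP90AA1 -1.35. Among abundant genes that rose it was NACA 0.49, SNHG29 0.52 and RPL36AL 0.50, and among those that fell TUBA1B -0.89, PFN1 -0.59, ACTB -0.95, HNRNPA2B1 -1.06 and TUBA1C -0.47. Of 166 stable genes named from lists, 160 differed between the lines. The others, for which no difference was called, were CFB, KRT7, CDH1, CHAC1, JUN and TGFB1. Genes given as values only are outside this count. Most named genes were chosen by their difference in the HCT15 libraries that enter this test, which favoured a call.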

How the results depend on the processing

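The counts of calls depended on scaling and on single libraries. The 483 genes higher with RNF26 became 239 with no filter on low values, 1502 with median-ratio scaling, 1410.0 with quantile normalization, 871 without mitochondrial and ribosomal protein genes, 772 with the GC and length correction and 863 in the fit of all 12 libraries. With 1 library left out they ranged from 181 (without the first RNF26 library) to 798 (without the second control). The 3785 lower genes became 2514 with no filter, 1841 with median-ratio scaling, 1670.0 with quantile normalization, 2499 without mitochondrial and ribosomal protein genes and 1161 with the GC and length correction, and ranged from 2185 (without the first RNF26 library) to 3750.0 (without the second control) with 1 library left out. The 273 calls with a log2 difference of 1 or more either way became 524 with a pseudocount of 0.1, 76 with a pseudocount of 5, 164 with median-ratio scaling, 160.0 with quantile normalization and 91 with the GC and length correction, and ranged from 252 (without the first control) to 519 (without the second control). Median-ratio scaling without the third control, chosen after seeing the data, gave 1136 higher, 1420.0 lower and 139 with a log2 difference of 1 or more. Without the third control alone 365 were higher and 3398 lower.

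Replicate numbers share only a number: same-numbered libraries correlated at 0.031, 0.0398 and 0.169 in their deviations from the group means, and not every library correlated best with its own number. The replicate block gave 419 higher, 3088 lower, 295 with a log2 difference of 1 or more, and RNF26 at 0.98. RNF26 stayed called under every alternative, at 0.89 to 1.48 on the log2 scale. Of 198 stable genes named by the rule, 163 kept their call with the GC and length correction, 34 lost it and TALAM1 had no GC value. With median-ratio scaling and the third control left out 15 lost their call, and with quantile normalization and with no filter on low values 4 each, MALAT1 among them in both. Some results that were not called changed sign, for causes that were not tested. MT-ND4L was at 0.048 with median-ratio scaling without the third control. MT-ATP8 was at -0.11 with the GC and length correction and ranged from -0.13 to 0.51 with 1 library left out. CD68 was at 0.0060 with the GC and length correction, at 0.21 with median-ratio scaling without the third control, and ranged from -0.50 to 0.0075 with 1 library left out. The cause of the other changes was not tested either.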

Other observations

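Outside the lists, 3 loci on chr21 that are annotated as lincRNA and have no symbol carried identical values and were stable rises. Each was at 6.09, 11.1 and 7.89 TPM in control libraries and 72.7, 66.9 and 40.1 TPM with RNF26, a log2 difference of 2.69 (limma adjusted p = 0.00133) with no overlap between the groups. They lie at chr21:8210384-8211306, chr21:8393419-8394341 and chr21:8437629-8438551 of GRCh38, and because their values are the same they count as 1 measurement. Which RNA these reads came from was not tested. LGALS4, a galectin of colon epithelium that was below the filter, was at 0.26 to 0.51 TPM in control libraries and 0.89 to 1.81 TPM with RNF26 and was not tested.

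By gene type, 365 of 11600 tested protein-coding genes rose and 3641 fell, with a median log2 difference of -0.23. Of 422 lincRNAs 29 rose and 17 fell, with a median of 0.02, and of 609 antisense genes 30 rose and 43 fell.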
